A study of Mus musculus with 7 samples.

Results

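The genes described here encode the NF-kB transcription factor subunits and the inhibitor of kappa B (IkB) proteins in mouse spleen after injection of lipopolysaccharide (LPS), a bacterial outer membrane component. They were taken by symbol: the subunit genes Nfkb1, Nfkb2, Rel, Rela and Relb, and the inhibitor genes Nfkbia, Nfkbib, Nfkbie, Nfkbiz and Bcl3. All 10 were found among the 17920 genes of the deposited table, and all 10 passed the filter on low values (a mean of at least 1 FPKM, a read measure corrected for transcript length and library depth), which left 11378 genes. Every mouse, wild type included, was labelled C57BL/6, was 8 weeks old and received 20 mg/kg LPS intraperitoneally. The 7 libraries form 4 groups. At 90 min after injection there were 2 wild-type and 2 GdX-/- libraries, and at 6 h there were 2 wild-type libraries and 1 GdX-/- library. GdX (UBL4A), the product of the X-linked gene Ubl4a, is a ubiquitin-like protein known from the delivery of tail-anchored membrane proteins, and the study compared LPS responses with and without it. The labels name the source as splenocytes, but the protocol describes crushing the organ before RNA extraction. They do not say how the allele was made or whether each library came from its own mouse, so p-values measure only the spread between libraries, which may be technical. No spleen without LPS was analysed here, so no level can be set against a resting one.

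NF-kB factors are dimers of Rel-homology proteins. RelA, c-Rel (from Rel) and RelB carry transactivation domains, whereas Nfkb1 and Nfkb2 encode the precursors p105 and p100, which are processed to p50 and p52. IkBα (Nfkbia), IkBβ (Nfkbib) and IkBε (Nfkbie) hold dimers in the cytoplasm until IkB kinase marks them for degradation, and Nfkbia is itself a rapidly induced NF-kB target that closes a negative feedback loop. IkBζ (Nfkbiz) and BCL3 act in the nucleus on p50 or p52 dimers, and IkBζ is needed for part of the secondary LPS response.

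RefSeq promoter windows (GRCm38.p6, the 250 bases before each annotated start) were matched by gene identifier for 7 of the 10 genes, with 9 start sites between them. Nfkb1, Relb and Nfkbiz were not matched. Windows were searched on both strands for the kB consensus, the general NF-kB binding motif. A match was present for 4 of the 7 genes, Nfkb2, Rel, Nfkbia and Nfkbie, and no match was present for Rela, Nfkbib and Bcl3. Of 27025 genes with such windows, 8.23% held a match in at least 1 window, and of 32851 windows 7.25% did. A match is a description of these letters and not evidence of binding. The windows of the 4 genes with a match are shown, with that of Nfkbib as an inhibitor gene without one, because these genes carry the levels described next. Capitals mark the consensus match, read 5′ to 3′ on the gene's strand, and the window of Nfkb2 is that of the first of its 3 listed starts.
Nfkbia (GRCm38.p6, chr12:55492648-55492897, minus strand): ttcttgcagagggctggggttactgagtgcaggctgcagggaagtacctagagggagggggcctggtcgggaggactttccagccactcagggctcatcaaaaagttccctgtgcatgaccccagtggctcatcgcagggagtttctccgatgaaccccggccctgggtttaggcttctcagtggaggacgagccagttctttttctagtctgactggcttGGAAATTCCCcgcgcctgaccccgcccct
Nfkb2 (GRCm38.p6, chr19:46304487-46304736, plus strand): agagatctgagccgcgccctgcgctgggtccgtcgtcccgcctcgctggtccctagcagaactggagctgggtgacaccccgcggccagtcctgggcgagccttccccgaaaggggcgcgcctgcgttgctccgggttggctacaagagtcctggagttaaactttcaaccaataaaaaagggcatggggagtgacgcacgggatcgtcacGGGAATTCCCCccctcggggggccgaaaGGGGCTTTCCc
Rel (GRCm38.p6, chr11:23770970-23771219, minus strand): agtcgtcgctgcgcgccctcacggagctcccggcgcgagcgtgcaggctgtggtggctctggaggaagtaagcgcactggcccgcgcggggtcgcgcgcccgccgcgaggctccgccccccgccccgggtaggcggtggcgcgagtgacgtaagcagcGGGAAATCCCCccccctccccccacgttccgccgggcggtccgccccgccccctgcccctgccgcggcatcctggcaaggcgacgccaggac
Nfkbie (GRCm38.p6, chr17:45555450-45555699, plus strand): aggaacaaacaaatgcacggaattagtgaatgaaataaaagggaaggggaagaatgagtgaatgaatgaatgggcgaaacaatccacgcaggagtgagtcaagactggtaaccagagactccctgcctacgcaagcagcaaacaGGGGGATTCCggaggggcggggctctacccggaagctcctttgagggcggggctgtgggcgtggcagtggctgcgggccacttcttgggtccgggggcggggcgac
Nfkbib (GRCm38.p6, chr7:28766645-28766894, minus strand): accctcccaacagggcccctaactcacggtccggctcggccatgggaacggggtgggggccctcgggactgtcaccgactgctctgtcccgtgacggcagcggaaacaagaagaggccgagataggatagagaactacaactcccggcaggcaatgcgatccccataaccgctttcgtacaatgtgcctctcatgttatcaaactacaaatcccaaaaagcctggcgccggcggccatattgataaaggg
The Nfkbia match begins 29 bases before the start and reads GGGAATTTCC on the opposite strand, an exact decamer found in 0.085% of all windows. The first Nfkb2 window holds GGGAATTCCC, present in 0.033% of windows. That site and the Rel site each match on both strands in overlapping registers, and Nfkb2 has another match, GGGGCTTTCC, 11 bases before the start.

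Estimated depth was close to equal, between 19000000 and 21500000 mapped fragments per library, read from the steps of low FPKM values. The lowest value of the 10 members, Rel in replicate 1 of wild type at 6 h, corresponds to about 636 fragments. Ubl4a itself overlapped between genotypes at 90 min (4.03 and 5.69 FPKM in GdX-/-, 5.62 and 7.50 in wild type). At 6 h it was below both wild-type libraries (10.6 against 11.9 and 14.0). Gm44504, an entry that overlaps it on chromosome X, separated the genotypes widely at both times (0.66 to 1.86 FPKM against 14.5 to 51.1). Every marker on the lists for lymphocytes (B and T cells), neutrophils, monocytes, dendritic cells, macrophages of the red pulp and red cell precursors was detected in each library. The 5 pancreas markers, each listed at 0 in some library, summed to at most 0.79 FPKM. Of 4 fat markers 3 were found, with Adipoq and Cfd at 0 in some library. They summed to 18.3 and 17.4 FPKM in GdX-/- against 51.4 and 40.9 in wild type at 90 min, and to 4.41 against 21.98 and 10.2 at 6 h. Nearly all of this sum was Fabp4 (18.31 and 17.13 against 50.93 and 37.25 FPKM at 90 min). Fabp4 was thus lower in GdX-/- at both times, as were Nfkbia and Nfkbib below. Adipoq was at most 0.2 FPKM and did not separate the genotypes. Cfd was lower in GdX-/- but at most 3.43 FPKM. Libraries stood apart from their labels in some respects. Over all tested genes, replicate 2 of the GdX-/- 90 min group differed from the GdX-/- 6 h library by 0.35 in mean absolute log2(FPKM + 1), and from its own replicate by 0.41. Whether its time label is right was not tested, and this bears on every 90 min and GdX-/- time value. Single genes went both ways. Its Lcn2 (137 FPKM) and Cd163 (2.49 FPKM) were nearer its replicate (164 and 2.35) than the GdX-/- 6 h library (322 and 0.26). Its Nfkbid (30.7 FPKM) and Cxcl2 (16.4 FPKM) were nearer that 6 h library (29.8 and 11.3) than its replicate (142 and 114). Replicate 1 of the GdX-/- 90 min group lay closest to replicate 2 of wild type at 90 min (0.23). The 6 neutrophil markers summed to 4289 FPKM in replicate 2 of the GdX-/- 90 min group against 741 to 2429 in the other 6 libraries. The 6 B-cell markers summed to 499.5 and 557 FPKM in wild type at 6 h, 1814 in GdX-/- at 6 h and 1193 to 2104 at 90 min. The 5 red cell and precursor markers separated the genotypes at both times, at 1179 and 962 FPKM in GdX-/- against 512 and 577 in wild type at 90 min, and 550.2 against 171 and 239.5 at 6 h. At 6 h the GdX-/- library was also above both wild-type libraries in summed markers of neutrophils (2429 against 1106 and 752 FPKM), T cells (222 against 119.7 and 95.8 FPKM), red pulp macrophages (512 against 280.4 and 296), monocytes (261 against 101 and 98.9) and dendritic cells (32.0 against 14.2 and 16.8). The neutrophil sum was mostly S100a8 and S100a9 (1222 and 1102 FPKM in GdX-/-), and Ngp was below both wild-type libraries (40.3 against 52.7 and 48.2). Camp (15.2), Cd3d (56.35), Flt3 (9.02) and the B-cell marker Pax5 (86.9) lay between the wild-type libraries, and Cd163 (0.26) equalled the higher. The other markers of these lists were above both. Between the wild-type replicates, differences followed transcript length across genes (11180 genes with a length, Spearman's rho -0.45 for the 90 min pair, -0.59 for the 6 h pair, as a description), long transcripts being lower in replicate 1. For Nfkbia, Nfkbib, Nfkbiz and Rel, values are given with and without the libraries they rest on. The part of cell mixture or transcript length in the results was not tested unless a value is given. In whole spleen, fewer cells of a type and less RNA per cell cannot be told apart.

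Nfkbia was the most abundant of the 10 transcripts in each of the 7 libraries and Rel the least abundant, on the per-length FPKM scale. Nfkbia ranged from 287 to 1516 FPKM and made up 55.8% to 78.01% of the summed FPKM of the 5 inhibitor genes. Rel ranged from 3.96 to 32.8 FPKM. The other 8 genes lay between 27.7 and 257 FPKM, and their ranges overlapped. Nfkbiz changed rank most with Nfkbib: Nfkbiz had rank 2 or 3 in both wild-type libraries and 1 GdX-/- library at 90 min and rank 8 or 9 in the other 4 libraries, and Nfkbib moved between ranks 2 and 9. By contrast Nfkb2 stayed between ranks 2 and 4 and Rela between ranks 6 and 8. Replicates of 1 group differed by up to 4.13-fold for a member (Nfkbiz in GdX-/- at 90 min), and by 3.16-fold for Rel in wild type at 6 h, so orders among the middle 8 do not exceed that spread.

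**Figure D1:**
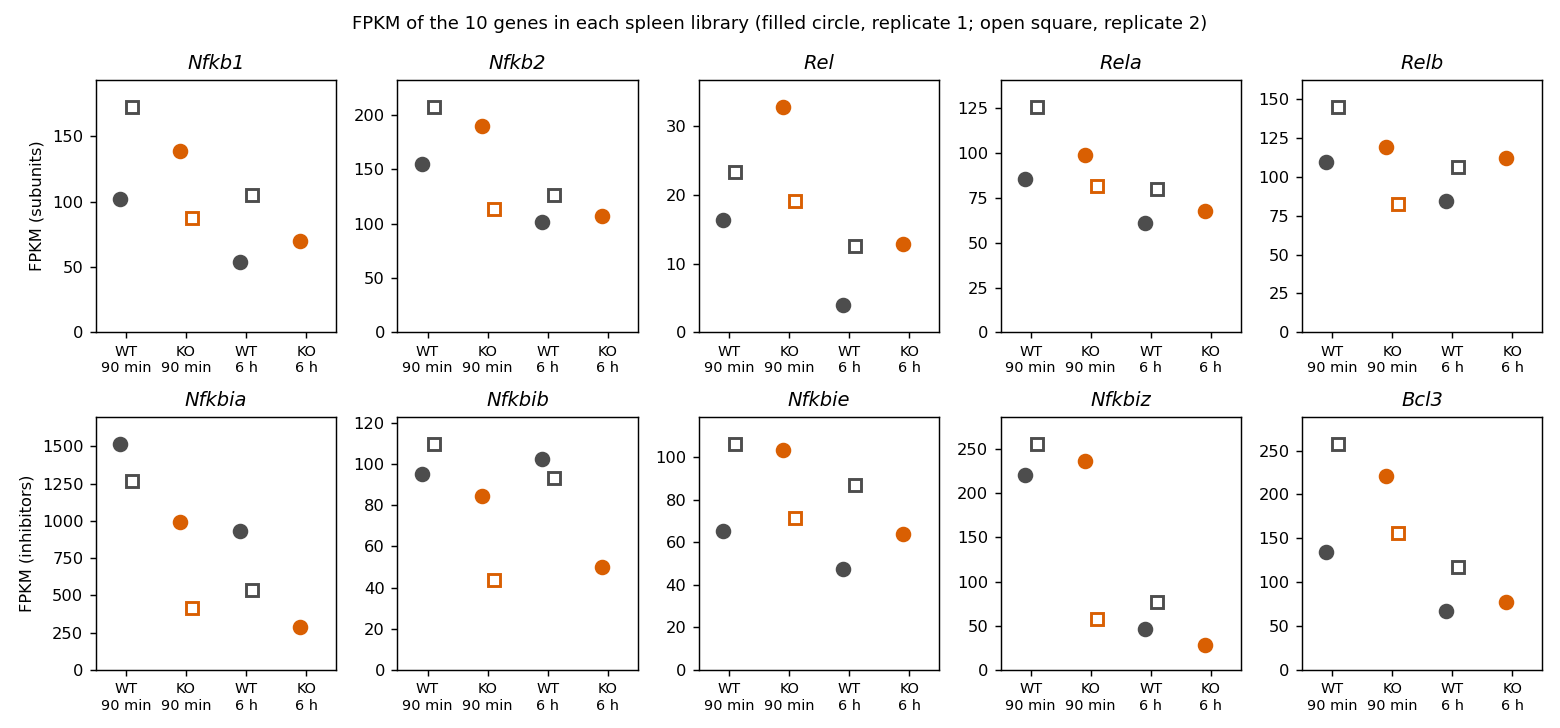
FPKM (linear y axis, from 0) of the 5 subunit genes (top row) and the 5 inhibitor genes (bottom row) in each library, by genotype (WT, wild type, grey; KO, GdX-/-, orange) and time after LPS; each point is 1 library. Nfkbia lies at 1516 and 1266 FPKM in wild type at 90 min and at 287 FPKM in the GdX-/- library at 6 h, and the GdX-/- replicates at 90 min lie far apart for Nfkbiz (237 and 57.4 FPKM).

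The comparison of genotypes addresses how expression after LPS differs without GdX, between groups whose cell marker sums differ as given above. Among the inhibitors, Nfkbia and Nfkbib were below both wild-type libraries in every GdX-/- library at the same time, and Nfkbiz was low in 2 of the 3 GdX-/- libraries, but no member passed the adjusted threshold of 0.05. With time as covariate (3 GdX-/- against 4 wild-type libraries), limma called 0 of the 10 members, where it called 0.0439% of all tested genes. At 90 min it called 0 of 10 (0.0176% of all genes) and at 6 h 0 of 10 (3.96% of all genes), with 2 of 10 at an unadjusted p under 0.05 at each time (7.58% and 28.4% of all genes). With the same test 3 of 10 members had an unadjusted p under 0.05 (Nfkbia, Nfkbib and Nfkbiz, all lower in GdX-/-), against 27.0% of all genes in either direction and 9.19% as lower.

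Nfkbia, the feedback inhibitor IkBα, stood at 1516 and 1266 FPKM in wild type and 991 and 414 FPKM in GdX-/- at 90 min. At 6 h it stood at 930.3 and 536 FPKM in wild type and 287 FPKM in GdX-/-. The groups did not overlap at either time, and GdX-/- was lower in 3 of 3 libraries. On the log2(FPKM + 1) scale the difference was -1.11 at 90 min (SE 0.43, limma adjusted p = 0.621), -1.30 at 6 h (SE 0.53, adjusted p = 0.149) and -1.19 with time as covariate (SE 0.32, adjusted p = 0.104). This last value lay at percentile 0.94 of all tested genes. Without replicate 2 of the GdX-/- 90 min group it was -0.89 (adjusted p = 0.350) and the 90 min difference was -0.48. Without replicate 1 of that group it was -1.52 and passed (limma adjusted p = 0.0221). At 6 h, Nfkbia was -0.90 without replicate 1 of wild type (limma adjusted p = 0.249) and -1.69 without replicate 2 (0.00743). Each of these sets 1 library against 1, with the spread taken from the 90 min groups, so neither has a replicate check of its own. With the replicate number as a block the 6 h value was -1.68 (limma adjusted p = 0.0172), close to that without replicate 2. The only GdX-/- library at 6 h is labelled replicate 1. Deviations of GdX-/- libraries at 90 min did not follow those of same-numbered wild-type libraries (correlations 0.08 and -0.12), so the block may not hold for GdX-/-.

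Nfkbib encodes IkBβ, a cytoplasmic inhibitor whose promoter window above holds no consensus match. It stood at 95.05 and 109.8 FPKM in wild type and 84.6 and 43.9 FPKM in GdX-/- at 90 min, and at 102 and 93.2 FPKM against 50.1 FPKM at 6 h. Wild-type values were thus within a narrow band at both times, and all 3 GdX-/- libraries were below it. The difference was -0.73 at 90 min (SE 0.32, limma adjusted p = 0.621), -0.95 at 6 h (SE 0.39, adjusted p = 0.150) and -0.82 with time as covariate (SE 0.25, adjusted p = 0.107). Leaving out replicate 2 of the GdX-/- 90 min group gave -0.27 at 90 min and -0.61 for the covariate fit (limma adjusted p = 0.353). Leaving out replicate 1 gave -1.20 at 90 min and -1.08 for the covariate fit (limma adjusted p = 0.0210). Nfkbia and Nfkbib were 2 of 10 members whose genotypes did not overlap at either time, lower in GdX-/-, where 13.0% of all genes met this.

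Nfkbiz (IkBζ) stood at 220.2 and 256 FPKM in wild type at 90 min and 237 and 57.4 FPKM in GdX-/-. At 6 h it stood at 45.9 and 76.5 FPKM in wild type and 27.7 FPKM in GdX-/-. Replicate 1 of the GdX-/- 90 min group lay between the wild-type libraries, so the genotypes overlapped at 90 min. Over both times together the difference was -1.04 (SE 0.40, limma adjusted p = 0.142), and at 90 min it was -1.02 (SE 0.55, adjusted p = 0.621). Without replicate 2 of the GdX-/- group the 90 min difference was -0.0024, so at that time it came from 1 library. For the covariate fit the value was -0.54 without that library (limma adjusted p = 0.428), and -1.55 without replicate 1 of that group, which passed (limma adjusted p = 0.0215).

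Nfkbie (IkBε) and Bcl3 showed no separation. Nfkbie stood at 65.5 and 106 FPKM in wild type and 103 and 71.6 FPKM in GdX-/- at 90 min, and the 6 h GdX-/- library (63.8 FPKM) lay between the wild-type libraries (47.2 and 87.1 FPKM). Bcl3 stood at 134 and 257 FPKM in wild type and 220.5 and 155 FPKM in GdX-/- at 90 min. Its 6 h value of 77.4 FPKM in GdX-/- lay between 66.7 and 117 FPKM in wild type. Their differences with time as covariate were 0.02 (SE 0.27) for Nfkbie and -0.08 (SE 0.29) for Bcl3, both smaller than their errors and neither stable in sign when a library was left out.

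The 5 subunit genes had smaller genotype differences than their replicate spread. At 90 min the wild-type and GdX-/- libraries overlapped for each of the 5. Rela, encoding the p65 subunit, stood at 85.8 and 126 FPKM in wild type and 99.0 and 81.7 FPKM in GdX-/- at 90 min. At 6 h it stood at 60.9 and 80.0 FPKM against 67.85 FPKM. Over both times its difference was -0.14 (SE 0.22, limma adjusted p = 0.698). Nfkb1 (-0.20, SE 0.29), Nfkb2 (-0.21, SE 0.24) and Relb (-0.11, SE 0.24) were as close to 0, with limma adjusted p between 0.585 and 0.781. For Relb that value averages -0.35 at 90 min and 0.24 at 6 h, where the GdX-/- library (112 FPKM) was above both wild-type libraries (84.1 and 106 FPKM). Nfkb2 shares 316 genomic bases with Psd, and no source says whether counting used strand, so reads from Psd (11.6 to 28.9 FPKM) may be included in its level.

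Rel was the subunit with the highest genotype value. It stood at 16.4 and 23.3 FPKM in wild type and 32.8 and 19.2 FPKM in GdX-/- at 90 min, and at 3.96 and 12.5 FPKM against 12.8 FPKM at 6 h. The 6 h GdX-/- library was above both wild-type libraries, but by 0.03 on the log2 scale when the lower one (replicate 1) was left out. Over both times together the difference was 0.51 (SE 0.35, limma adjusted p = 0.359). At 6 h it was 0.75 (SE 0.58, adjusted p = 0.405), and without replicate 2 of wild type it was 1.48 and passed (limma adjusted p = 0.0183), again with 1 library against 1. Rel has the longest transcript of the 10 genes (7466 bases), and long transcripts were low in wild-type replicate 1 at both times. With the length trend removed from each library, the covariate difference was 0.22.

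The median difference of all tested genes was 0.07 at 90 min, 0.32 at 6 h and 0.16 with time as covariate. Relative to it, the median subunit lay lower, at -0.27, -0.04 and -0.14, and the median inhibitor lower still, at -0.73, -0.95 and -0.82. Without replicate 2 of the GdX-/- 90 min group, the inhibitor median was -0.0024 at 90 min and -0.54 with time as covariate, and the subunit median 0.06 and -0.0027. The all-gene median was then -0.045 and 0.13, so at 90 min both lay above it. The 6 h subunit median was -0.23 without wild-type replicate 1 and 0.38 without replicate 2 (all genes 0.18 and 0.46). Quantile normalization, which brings the all-gene median near 0, turned the signs of Nfkb1, Nfkb2, Rela and Nfkbie at 6 h and of Nfkb2, Relb and Bcl3 in the covariate fit, so these have no stable direction. Under it Nfkbia (-0.92), Nfkbib (-0.71) and Nfkbiz (-0.96) kept theirs with time as covariate. The subunit median was then 0.19 at 6 h and 0.027 with time as covariate, above the all-gene median of -0.017 and -0.007. The place of the subunit median relative to all genes was therefore not stable. Across genes, the covariate difference followed transcript length (Spearman's rho of 0.40, a description), and Nfkbia (1578 bases) and Nfkbib (1652 bases) have the shortest transcripts of the 10. With the length trend removed, the values were -0.94 for Nfkbia, -0.60 for Nfkbib and -1.12 for Nfkbiz (3767 bases).

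**Figure D2:**
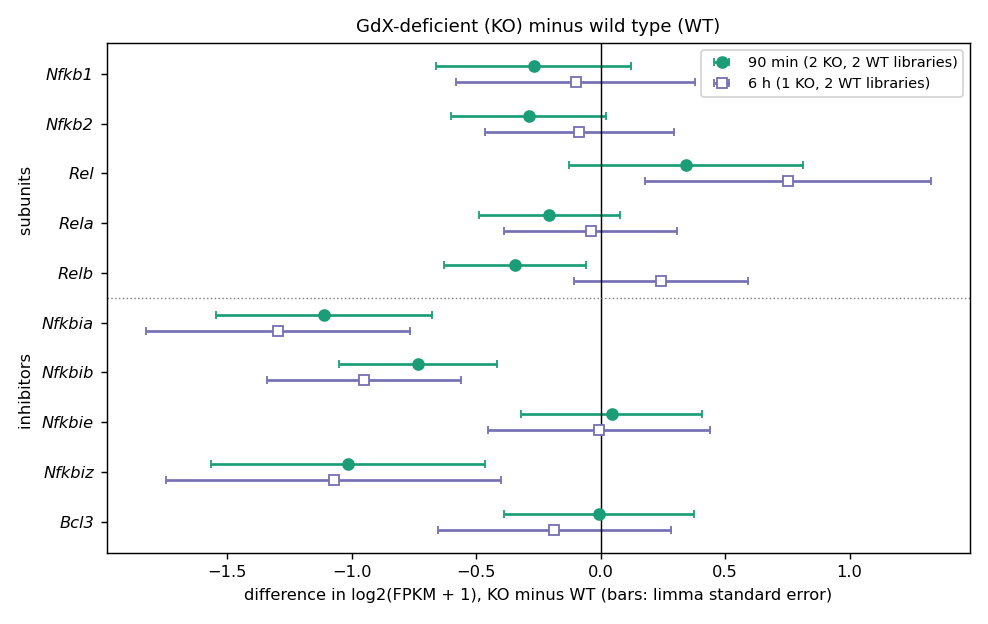
Difference in log2(FPKM + 1) between GdX-/- and wild-type spleen (x axis) for each gene (y axis, subunits above the dotted line) at 90 min (green circles) and 6 h (purple squares, 1 GdX-/- library); bars are limma standard errors. Nfkbia (-1.11 and -1.30), Nfkbib (-0.73 and -0.95) and Nfkbiz (-1.02 and -1.07) lie left of 0 at both times, while the bars of Nfkb1, Rela, Nfkbie and Bcl3 include 0.

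Inhibitors were then set against subunits within each library, which cancels the scaling of that library. Nfkbia made much of this difference, and values without it follow. The mean log2(FPKM + 1) of the 5 inhibitors exceeded that of the 5 subunits by 1.35 and 1.19 in wild type at 90 min and by 1.09 and 0.63 in GdX-/- at 90 min. At 6 h the excess was 1.33 and 0.94 in wild type and 0.28 in GdX-/-. Without Nfkbia it was 0.61 and 0.60 in wild type and 0.54 and 0.13 in GdX-/- at 90 min, and 0.55 and 0.43 in wild type and -0.22 in GdX-/- at 6 h. Each GdX-/- library thus had a smaller excess than both wild-type libraries of its time, with and without Nfkbia. With all 5 inhibitors, replicate 1 at 90 min was below the nearer wild-type library by less than the wild-type replicates differed. Without Nfkbia it was below by more than they differed (0.54 against 0.61 and 0.60). As a sum of FPKM, inhibitor transcripts were 4.33 and 2.96 times subunit transcripts in wild type at 90 min and 2.83 and 1.93 times in GdX-/-. They were 3.92 and 2.12 times in wild type at 6 h and 1.37 times in GdX-/-.

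For the cytoplasmic inhibitors Nfkbia, Nfkbib and Nfkbie the excess was 1.96 and 1.25 in wild type at 6 h, against 0.70 in GdX-/-. At 90 min their excess was 1.47 and 1.16 in wild type and 1.03 and 0.71 in GdX-/-. For the nuclear inhibitors Nfkbiz and Bcl3 the difference from the subunits was 1.17 and 1.22 in wild type at 90 min, and 0.39 and 0.47 at 6 h. In GdX-/- they stood at 1.18 and 0.50 at 90 min and at -0.35 at 6 h, where they were below the subunits. The ratio of Nfkbia to Rela FPKM ran from 4.23 (GdX-/- at 6 h) to 17.7 (wild type replicate 1 at 90 min). It was 10.01 in GdX-/- replicate 1 and 10.06 in wild type replicate 2 at 90 min, the pair of libraries that were closest over all genes. With the length trend removed, the mean excess of the 5 inhibitors was 0.78 in wild type and 0.54 in GdX-/- at 90 min, and 0.59 and -0.04 at 6 h.

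**Figure D3:**
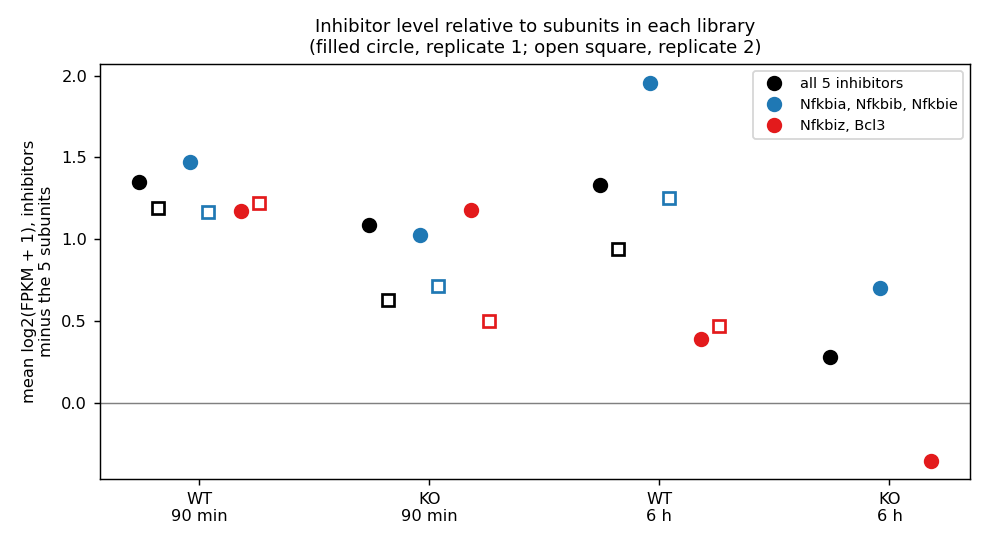
Mean log2(FPKM + 1) of inhibitor genes minus that of the 5 subunit genes (y axis) in each library, by group (x axis), for all 5 inhibitors (black), the cytoplasmic ones (blue) and the nuclear ones (red). The GdX-/- library at 6 h is lowest for all 3 (0.28, 0.70 and -0.35), and the nuclear inhibitors lie between 1.17 and 1.22 in wild type at 90 min and between 0.39 and 0.47 at 6 h.

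Time after LPS was compared within wild type. Nfkbiz fell from 220.2 and 256 FPKM at 90 min to 45.9 and 76.5 FPKM at 6 h, a log2 change of -1.98 (SE 0.55, limma adjusted p = 0.0499), lower in 2 of 2 libraries. It was the only 1 of 10 members called, where limma called 10.7% of all genes (6.32% as lower), and its call lay at the threshold: with a pseudocount of 0.1 (limma adjusted p = 0.0539), a mean of at least 5 FPKM (0.0592), quantile normalization (0.0675), or no filter (0.171) it was lost, as it was without the GdX-/- 6 h library. By unadjusted p, 3 of 10 members were under 0.05, against 28.7% of all genes. All 10 members had lower mean levels at 6 h, and for 7 of 10 the times did not overlap in that direction, against 27.6% of all genes. Marker sums of several cell types were lower at 6 h as well: T cells went from 276 and 225 to 119.7 and 95.8 FPKM, B cells from 1458 and 1351 to 499.5 and 557, red pulp macrophages from 598 and 657 to 280.4 and 296, and dendritic cells from 28.4 and 30.8 to 14.2 and 16.8. Their part in the members' values was not tested.

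Rel (-1.33, SE 0.47), Bcl3 (-1.07, SE 0.38) and Nfkbia (-0.97, SE 0.43) had the next largest wild-type changes, with limma adjusted p of 0.101, 0.104 and 0.176. For Rel, leaving out replicate 2 at 6 h gave -2.05 (limma adjusted p = 0.000604) and leaving out replicate 1 gave -0.61. The same omission of replicate 2 brought Bcl3 (-1.47, limma adjusted p = 0.00531) and Nfkb1 (-1.29, 0.0125) past the threshold, so 4 members were called with a lone wild-type library at 6 h, and Nfkbia passed when replicate 1 was left out (-1.37, 0.0186). Bcl3 also passed without replicate 1 at 90 min (-1.53, 0.0370). Nfkb1 (-0.82), Nfkb2 (-0.66), Rela (-0.57) and Relb (-0.41) had smaller values, with limma adjusted p between 0.197 and 0.383. Nfkbib had a wild-type time difference of -0.06 (SE 0.32) and Nfkbie of -0.37 (SE 0.36), both within their errors or close to them. The median over the 5 inhibitors was -0.97 and over the 5 subunits -0.66, against 0.05 for all tested genes. Without replicate 2 at 6 h both medians were -0.81, and without replicate 1 at 90 min they were -0.84 and -0.87. Without replicate 1 at 6 h they were -0.67 and -0.37, and without replicate 2 at 90 min -0.60 and -0.44. The gap between inhibitors and subunits thus depended on single libraries.

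In GdX-/- spleen the single 6 h library is assumed in the test to vary like the other groups. Limma called 0 of 10 members and 0% of all tested genes, and 2 of 10 members had an unadjusted p under 0.05, against 8.00% of all genes (2.10% as lower, the direction of both). Nfkbiz went from 237 and 57.4 FPKM to 27.7 FPKM (-2.04, SE 0.67, limma adjusted p = 0.397), and Bcl3 from 220.5 and 155 FPKM to 77.4 FPKM (-1.25, SE 0.47, adjusted p = 0.496). Nfkbia went from 991 and 414 FPKM to 287 FPKM (-1.16, SE 0.53, adjusted p = 0.641). Its fall was smaller without replicate 1 at 90 min, which leaves 414 FPKM, and larger without replicate 2, which leaves 991 FPKM. The median over the 5 inhibitors was -1.16 with both, -0.53 without replicate 1 and -1.50 without replicate 2. Without replicate 2 at 90 min the Nfkbiz value was -3.05, and without replicate 1 it was -1.03. Nfkbiz passed the threshold when either wild-type 6 h library was left out of the shared fit (limma adjusted p = 0.0142 and 0.0116), which changes only the estimated spread. For 8 of 10 members the 6 h library was below both 90 min libraries, against 15.8% of all genes. Relb, at 112 FPKM against 119 and 82.2 FPKM, was the only member with a higher mean at 6 h, and Nfkbib (50.1 against 84.6 and 43.9 FPKM) also overlapped.

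The genotype-by-time interaction was tested in the same fit. Limma called 0 of 10 members and 0.0703% of all genes, and no member had an unadjusted p under 0.05 (9.98% of all genes did). Member values ranged from -0.22 for Nfkbib to 0.59 for Relb, with limma adjusted p between 0.770 and 0.994 and standard errors between 0.45 and 0.87. These errors are too wide to show that the time course is the same in both genotypes.

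**Figure D4:**
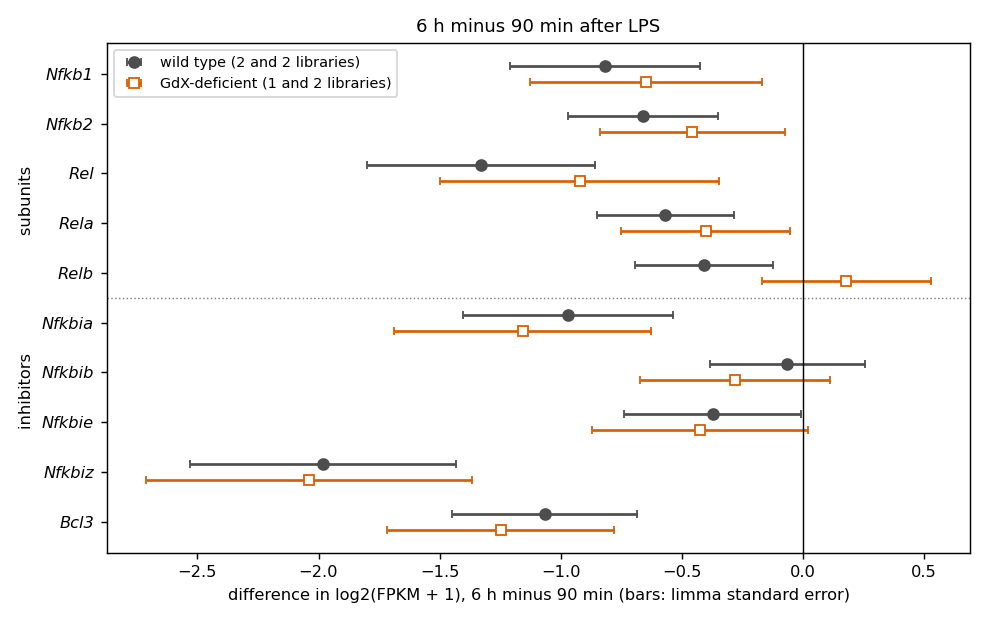
Difference in log2(FPKM + 1) between 6 h and 90 min after LPS (x axis) for each gene (y axis) in wild-type (grey circles) and GdX-/- spleen (orange squares, 1 library at 6 h); bars are limma standard errors. Nfkbiz has the largest fall in both (-1.98 and -2.04), and Relb lies at -0.41 in wild type and 0.18 in GdX-/-.

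Other genes of the pathway were taken from lists by role. Nfkbid, encoding the nuclear inhibitor IkBNS, stood at 121 and 156 FPKM in wild type and 142 and 30.7 FPKM in GdX-/- at 90 min. It stood at 32.8 and 37.5 FPKM against 29.8 FPKM at 6 h. As for Nfkbiz, replicate 1 of the GdX-/- 90 min group lay within the wild-type range and replicate 2 at the 6 h level. Its wild-type time difference was -1.94 (SE 0.56, limma adjusted p = 0.0567). It passed with the replicate block (0.0401), with the length trend removed (0.0386), with only the 4 libraries compared (0.0127) and without any 1 library other than that of GdX-/- at 6 h (limma adjusted p of 0.0040 to 0.0476). It did not pass with other filters, another pseudocount or quantile normalization (limma adjusted p up to 0.185). Its genotype difference with time as covariate was -0.71 (SE 0.43, adjusted p = 0.292).

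Of 11 genes for IkB kinase and upstream kinases, limma called 0 between genotypes with time as covariate (0.0439% of all genes), and 0 were at an unadjusted p under 0.05 (27.0% of all genes). Their median difference was 0.35 against 0.16 for all genes, and 10 of 11 were positive. The 3 with the smallest p were Tab3 (0.54), Ikbke (0.44) and Map3k14 (0.60), with limma adjusted p of 0.197 or more. Over time in wild type, 1 of the 11 passed, where 10.7% of all genes did: Map3k8, encoding the kinase TPL2 that p105 holds inactive, fell from 38.9 and 52.9 FPKM to 10.5 and 23.8 FPKM (-1.46, SE 0.40, limma adjusted p = 0.0492). That call was lost with other filters, with a pseudocount of 0.1 (0.0520), with only the 4 libraries compared (0.0702) and in 4 of the 7 fits that left out a library (limma adjusted p up to 0.151). Tab1 (0.77, limma adjusted p = 0.133) and Ikbkg (0.32) did not pass, though Tab1 did with the replicate number as a block (0.0451) and with quantile normalization (0.0433). Of 5 genes of the ubiquitin ligase that marks IkB for degradation, 0 were called by limma in either comparison (2 between genotypes and 0 over time at an unadjusted p under 0.05, against 27.0% and 28.7% of all genes). Btrc, the substrate receptor, stood at 6.04 to 6.79 FPKM in the 3 GdX-/- libraries, above all 4 wild-type libraries, of which those at 6 h were at 2.40 and 3.34 FPKM (difference 0.64, SE 0.23, limma adjusted p = 0.126). Rbx1 (-0.59) and Skp1a (-0.38) had limma adjusted p of 0.154 and 0.252. Of 9 RelA cofactors and regulators, limma called 0 in either comparison (2 in each at an unadjusted p under 0.05, shares no higher than the 27.0% and 28.7% of all genes). Their median was 0.12 between genotypes and 0.20 over time in wild type. Ep300, encoding the acetyltransferase p300, had the smallest p between genotypes (1.16, SE 0.32, limma adjusted p = 0.104), and Pdlim2 had a difference of 0.59 (limma adjusted p = 0.194). Without replicate 1 of the GdX-/- 90 min group both passed, at 1.46 (limma adjusted p = 0.0226) and 0.91 (0.0290).

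Of 18 LPS-induced NF-kB target genes, 0 were called between genotypes (0.0439% of all genes in the covariate fit), and 17 of 18 had a negative difference with time as covariate. Their median was -0.62 against 0.16 for all genes. By limma, 9 of the 18 were under 0.05 before adjustment, against 27.0% of all genes (9.19% as lower). Cxcl1 (-2.88), Cxcl2 (-1.92) and Ier3 (-0.91), the 3 with the smallest p, had limma adjusted p of 0.0915, 0.101 and 0.111. Cxcl1 and Cxcl2, which encode neutrophil-attracting chemokines, passed without replicate 1 of the GdX-/- 90 min group, and Cxcl1 also without replicate 2 of wild type at 90 min. The 2 GdX-/- replicates at 90 min lay far apart. Cxcl1 stood at 182 and 27.1 FPKM against 513 and 359 in wild type, and Cxcl2 at 114 and 16.4 against 183 and 158. Without replicate 2 of that GdX-/- group, the 90 min differences of both are therefore smaller. Over time in wild type 16 of the 18 had a negative difference (median of the 18, -1.52 against 0.05 for all genes). Limma called 6 of the 18 as lower, where it called 6.32% of all genes as lower. Among the 6 were Ccl4 (-3.24, limma adjusted p = 0.00873), Tlr2 (-2.06, 0.00381) and Ier3 (-1.77, 0.0163). With no filter on low values the calls of Ccl4 (0.0692) and Ier3 (0.0724) were lost, and that of Ier3 also without replicate 1 at 90 min (limma adjusted p = 0.0532). Of 5 genes known to need IkBζ, limma called 0 between genotypes with time as covariate (0.0439% of all genes). Before adjustment 3 were under 0.05 (27.0% of all genes, 9.19% as lower), and all 5 had a negative difference. For Lcn2, encoding lipocalin 2, that value (-0.045) averages 0.43 at 90 min, where GdX-/- libraries (164 and 137 FPKM) were above wild type (103 and 118 FPKM), and -0.76 at 6 h (322 against 476 and 629 FPKM). Its interaction was -1.20 (SE 0.41, limma adjusted p = 0.346). Il6 had the largest (-2.68, SE 0.46, limma adjusted p = 0.0915), followed by Il12b (-1.59) and Cebpd (-0.71). Il6 passed without replicate 1 of the GdX-/- 90 min group (-3.31) as well as when wild-type replicate 2 of that time was omitted (-3.03), and Il12b in the former case (-2.24). At 90 min Il6 stood at 72.2 and 21.0 FPKM in GdX-/- against 185 and 120 in wild type. Il12b stood at 38.9 and 3.76 FPKM against 62.1 and 52.8. Without replicate 2 of that GdX-/- group, the 90 min differences of both are therefore smaller. At 6 h alone Il6, encoding interleukin 6, was the 1 of the 5 called, where 3.96% of all genes were: it stood at 34.7 and 31.1 FPKM in wild type and 1.35 FPKM in the single GdX-/- library (-3.85, SE 0.60, limma adjusted p = 0.0174). With no filter on low values that call was lost (limma adjusted p = 0.0869). Over time in wild type limma called 4 of the 5 as lower, where it called 6.32% of all genes as lower. They included Il12b (-3.79, limma adjusted p = 0.0170) and Cebpd (-1.67, 0.0141), whose calls were lost with no filter (0.0995 and 0.0612). In wild type Lcn2 rose from 103 and 118 FPKM to 476 and 629 FPKM (2.30, SE 0.26, limma adjusted p = 0.00197), opposite in direction to Nfkbiz. These lists were written with earlier results of these data known, so their counts are not independent evidence.

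For each member, the tested genes with the most similar profile were found by the mean absolute difference between log2(FPKM + 1) profiles over the 7 libraries, each centred on its own mean, among 10902 genes. The closest to Nfkbia were Bcl2a1d (0.12), Adm (0.18) and Ptx3 (0.19). Nfkbiz was closest to Cd83 (0.18), Plscr1 (0.18) and Tnip3 (0.20), and Nfkbib to Cd200 (0.04), Elp5 (0.09) and Nup62 (0.09). Rela was closest to Litaf (0.07), Dcbld1 (0.08) and Stx6 (0.09), and Rel to Ppp1r16b (0.13), Fam129a (0.13) and Tet2 (0.16). Among the members themselves, Nfkb2 and Rela were the closest pair (0.11). Nfkbia was nearest to Nfkbib (0.41) and Nfkbiz to Nfkbia (0.52), both farther apart than any subunit from its nearest member.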

How the data were processed

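Mouse spleen RNA in 7 libraries was sequenced on a BGISEQ-500, per the labels' protocols, which do not say which of poly(A) selection and ribosomal RNA depletion was used. The authors deposited 1 table of FPKM values per gene and library. HISAT, HISAT2 2.0.4, Bowtie2, RSEM and GRCm38.p5 are named in the submitters' processing notes, with no role or order, and whether counting used strand is not given in the sources used here. FPKM is not a count, so no count model was used.

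Values were tested as log2(FPKM + 1) with limma 3.58.1 (R 4.3.3, trended empirical Bayes), for genes with a mean of at least 1 FPKM, with p-values adjusted by the Benjamini-Hochberg method over 11378 genes and a threshold of 0.05. A 4-group fit (3 residual degrees of freedom) gave the differences at each time, over time and the interaction, and a fit with genotype and time (4 residual degrees of freedom) gave the difference with time as covariate. The single GdX-/- library at 6 h takes its spread from the other groups. A fold on this scale understates the change of low genes. The scripts were tested on simulated data. Depth was estimated from the steps of low values, at 19000000 to 21500000 fragments per library.

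All 10 members are named whatever their values, Nfkbid likewise, and from each pathway list the 3 genes with the smallest p in a comparison, of which 1 gene is not reported here. Likeness left out predicted genes and antigen receptor segments. Members and lists were chosen with earlier results of these data known. Alternatives were another pseudocount, other filters, quantile normalization, a replicate block, only the libraries compared, each library left out, and removal of the length trend, which was added after seeing the data.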

Additional observations from a re-analysis of the deposited data

How the results depend on the processing

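Groups held at most 2 libraries, depth was close to equal between them, and the FPKM table allowed no edgeR or DESeq2 alternative. Of 320 values for members under alternatives other than leaving out a library, 298 kept their direction and side of the threshold, 4 lost a call, 1 gained one and 17 changed sign. Of 330 values with a library left out, 288 kept both, 1 lost a call, 12 gained one and 29 changed sign. The cause of these changes was not tested.

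Genes called at 90 min (2) became 0 with the length trend removed and 181 with only the 4 libraries compared. At 6 h (450) they became 90 with no filter, 233 with a mean of at least 5 FPKM, 270 with quantile normalization (166 higher and 104 lower, against 331 and 119) and 935 with the length trend removed. With time as covariate (5) they became 2 with the length trend removed. For time in wild type (1218) no filter gave 635. For time in GdX-/- (0; 910 at an unadjusted p under 0.05) no filter gave 22 and length removal 28. For the interaction (8), pseudocount 0.1 gave 0, no filter 3, a mean of at least 5 FPKM 0, quantile normalization 4 and length removal 41. With a library left out, genes called ranged from 2 to 183 at 90 min, 627 to 3035 at 6 h, 2 to 1674 with time as covariate, 450 to 1774 for time in wild type, 0 to 236 for time in GdX-/- and 0 to 238 for the interaction.

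Members called over time in wild type (1, Nfkbiz) became 0 with pseudocount 0.1, with no filter, with a mean of at least 5 FPKM and with quantile normalization. With a library left out, members called ranged from 0 to 2 at 6 h, 0 to 3 with time as covariate, 0 to 4 for time in wild type and 0 to 1 for time in GdX-/-.

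Replicate numbers did not pair the samples: deviations of same-numbered libraries correlated at 0.77 between the wild-type groups, but at 0.08 and -0.12 with GdX-/- at 90 min. With the replicate number as a block, genes called were 3383 at 6 h, 12 with time as covariate, 2345 for time in wild type, 37 for time in GdX-/- and 80 for the interaction, and members called at 6 h were 1 (Nfkbia). The block changed the sign at 6 h of Nfkb1 (0.073), Rela (0.071), Nfkbie (0.17) and Bcl3 (0.017), and of Bcl3 with time as covariate (0.0025).

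Quantile normalization changed the sign of Bcl3 at 90 min (0.21), of Nfkb1 (0.021), Nfkb2 (0.19), Rela (0.10) and Nfkbie (0.095) at 6 h, and of Nfkb2 (0.027), Relb (0.089) and Bcl3 (0.12) with time as covariate. Length removal changed the sign of Bcl3 at 90 min (0.14), at 6 h (0.023) and with time as covariate (0.095), and of Nfkbie at 6 h (0.070). It moved the mean excess of inhibitors over subunits to -0.042 in GdX-/- at 6 h, 0.54 in GdX-/- at 90 min, 0.59 in wild type at 6 h and 0.78 in wild type at 90 min.

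Log2 differences that changed sign when a library was left out are given as ranges. At 90 min the range was -0.64 to 0.11 for Nfkb1, -0.66 to 0.081 for Nfkb2, -0.029 to 0.72 for Rel, -0.48 to 0.068 for Rela, -0.30 to 0.39 for Nfkbie, -0.47 to 0.46 for Bcl3 and -2.13 to 0.045 for Nfkbid. At 6 h the range was -0.58 to 0.38 for Nfkb1, -0.24 to 0.069 for Nfkb2, -0.23 to 0.15 for Rela, -0.44 to 0.43 for Nfkbie and -0.59 to 0.21 for Bcl3. With time as covariate the range was -0.37 to 0.0023 for Nfkb1, -0.26 to 0.014 for Rela, -0.35 to 0.080 for Relb, -0.15 to 0.19 for Nfkbie and -0.33 to 0.14 for Bcl3. For time in wild type the range was -0.17 to 0.039 for Nfkbib and -0.81 to 0.062 for Nfkbie. For time in GdX-/- the range was -0.083 to 0.44 for Relb and -0.74 to 0.19 for Nfkbib.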
